A study of Homo sapiens with 13 samples.

Results

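The 7 subunits of respiratory complex I that human mitochondrial DNA encodes (ND1, ND2, ND3, ND4, ND4L, ND5 and ND6) were followed on 13 one-colour Agilent expression arrays of CCRF-CEM cells. Every non-control probe named after one of them was taken, which gave 1 probe per gene, so 7 probes of the 34127 on the array and 7 of its 25940 gene names. CCRF-CEM (CEM) cells are a human cell line from an acute leukemia of T lymphoblasts. FK866 inhibits NAMPT, the enzyme of the rate-limiting step on the way from nicotinamide to NAD+. Parental cells (CEM PA) received DMSO as a mock treatment (n = 3) or 5 nM FK866 (n = 2), and FK866-resistant cells (CEM RES) received the same 2 treatments (n = 4 each), all for 48 h. CEM RES was 1 population, selected with stepwise increasing FK866 and resistant to 100 nM of the drug. The study's methods state that this population was routinely cultured in 100 nM of the drug, so its mock-treated cells were not drug-naive. The labels call the replicates biological, without naming separate cultures, so p-values measure the spread between these samples.

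Complex I (NADH:ubiquinone oxidoreductase) takes electrons from NADH, passes them to ubiquinone and pumps protons out of the mitochondrial matrix, and in doing so returns NADH to NAD+. The mitochondrially encoded subunits form the core of its membrane arm, while the remaining subunits come from nuclear genes. Both strands of mitochondrial DNA are transcribed as long precursors that are cut into single RNAs. By the usual naming, the heavy-strand genes (ND1 to ND5 and ND4L) are read in one direction, and ND6 is the only protein-coding gene read from the other, light-strand, promoter.

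The probes show this arrangement in their letters, more by C than by G. The ND6 probe held 5 C, against 13 to 20 in the heavy-strand probes, and 16 G, against up to 14 (ND4). The probes are given below as the arrays carry them, 5′ to 3′ in the sense of each gene, in the order of the genes along the molecule. Every G is in capitals.
ND1: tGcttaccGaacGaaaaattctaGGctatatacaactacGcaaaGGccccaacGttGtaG
ND2: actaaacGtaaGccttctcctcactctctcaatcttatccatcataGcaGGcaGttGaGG
ND3: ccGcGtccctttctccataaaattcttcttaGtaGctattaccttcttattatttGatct
ND4L: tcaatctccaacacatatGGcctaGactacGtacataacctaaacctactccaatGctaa
ND4: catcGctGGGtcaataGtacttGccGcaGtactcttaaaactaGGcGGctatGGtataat
ND5: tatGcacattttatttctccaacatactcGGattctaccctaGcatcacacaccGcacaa
ND6: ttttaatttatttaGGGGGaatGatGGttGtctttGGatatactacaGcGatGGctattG

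All 7 probes are 60 bases long and lie inside coding sequence, which has no introns in these genes. The array files place them in hg19 at chrM:3369-3428 (ND1), chrM:4914-4973 (ND2), chrM:10200-10259 (ND3), chrM:10708-10767 (ND4L), chrM:11432-11491 (ND4) and chrM:13887-13946 (ND5), all on the plus strand, and at chrM:14449-14508 (ND6) on the minus strand. The ND6 probe held 16 G and 5 C. The 6 heavy-strand probes held between 5 and 14 G and between 13 and 20 C, so the ND6 probe had the most G and the fewest C of the 7, and its GC content of 35.0% lay at the lower end of theirs (35.0% to 45.0%). ND4L and ND4 overlap by 7 bases, and the last 7 letters of the ND4L probe also lie in ND4. No other probe of the array shared a run longer than 15 bases with any of the 7. RefSeq names between 25 (ND3) and 45 (ND5) nuclear pseudogenes after each of these genes, and their part in the signals was not tested.

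Signals are given as log2 intensity after quantile normalization, which gives every array the same distribution, and they are comparable between arrays for 1 probe but not between probes. All 7 probes were well above background on 13 of 13 arrays and none was saturated. The ND4 spot of CEM RES mock replicate 1 was marked as an outlier by the scanner software and left out, so ND4 had 3 arrays in that group. Between 26457 and 33239 of 43118 spots per array were well above background, and replicate arrays correlated at r = 0.977 to 0.991 over probes. CEM RES mock replicate 1 stood apart in its 773 outlier spots, against 195 to 344 on the other arrays. The 5 CEM PA arrays were scanned in sessions 1 and 2 and the 8 CEM RES arrays in session 3, so line and scan session cannot be told apart, while every session held both treatments. In these bulk samples, fewer cells of a type and less RNA per cell cannot be told apart either. All 10 T lymphoblast markers checked were above background in every group, 2 being higher and 1 (CD5) lower in mock-treated CEM RES. Markers of other lineages were present too. On every array of a group, 3 or 4 of 4 B cell markers and 2 of 3 myeloid markers were above background, while MPO and HBB were above it on at most 1 array of a group. Between the mock-treated lines, 2 of the 4 B cell markers fell and 0 rose. Of 2 tested myeloid markers, 1 (ITGAM) fell by 0.71 on the log2 scale and the other, at 0.66, did not pass. The 1 tested erythroid marker rose by 1.05. Of all probes, 47.6% passed in this comparison. The part of these markers in the results was not tested. Of 4 general RNAs (MALAT1, NEAT1, ACTB, GAPDH), 0 differed between the mock-treated lines by limma's adjusted p (log2 differences from -0.03 to 0.58, adjusted p from 0.0927 to 0.980).

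The first comparison asked how the resistant cells differed from the parental cells without drug. All 6 heavy-strand ND genes were higher in mock-treated CEM RES, by 4.42-fold (ND4) to 21.3-fold (ND4L), and ND6 was 2.69-fold lower. Each of the 7 passed an adjusted p of 0.05 in limma over 22754 probes. In this comparison 47.6% of all probes passed (24.9% higher, 22.7% lower) and 48.8% had groups that did not overlap, so passing the test was common. The sizes were less common. Each heavy-strand log2 fold change exceeded that of between 97.5% (ND4) and 99.8% (ND4L) of all probes, ND6 exceeded 6.19%, and the median was 3.54 over the 6 heavy-strand genes against 0.04 over all probes. Without CEM RES mock replicate 1, the array with many outlier spots, the heavy-strand values ran from 2.13 (ND4) to 4.39 (ND4L) and ND6 was at -1.46.

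ND1, which lines the ubiquinone-binding site, had log2 signals of 8.71, 8.27 and 9.18 on the mock CEM PA arrays and of 11.36, 11.69, 12.92 and 12.25 on the mock CEM RES arrays. The lines did not overlap, and the resistant arrays differed among themselves more than the parental ones did. The log2 fold change was 3.34 (SE 0.44, limma adjusted p = 0.000105).

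ND2, ND4 and ND5 are the subunits of the membrane arm that resemble bacterial sodium-proton antiporters. ND2 was at 10.73, 11.53 and 10.62 in mock CEM PA and at 14.13, 14.75, 14.88 and 15.05 in mock CEM RES. Every resistant array lay above every parental array, with a log2 fold change of 3.75 (SE 0.27, limma adjusted p = 1.77e-06). ND4 was at 13.26, 13.37 and 14.26 in mock CEM PA and at 15.14, 15.84 and 16.35 on the 3 mock CEM RES arrays that measured it. These groups did not overlap either, and the log2 fold change of 2.14 (SE 0.33, limma adjusted p = 0.000343) was the lowest of the heavy-strand genes. ND5 was at 9.91, 9.85 and 10.71 in mock CEM PA and at 13.48, 13.06, 12.99 and 14.10 in mock CEM RES. Its lines were again apart, by a log2 fold change of 3.25 (SE 0.29, limma adjusted p = 7.14e-06).

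ND3 and ND4L are the small membrane subunits between the ubiquinone site and the antiporter-like subunits. ND3 was the most even of the 7, with 10.52, 10.94 and 10.67 in mock CEM PA and 14.64, 14.86, 14.52 and 15.31 in mock CEM RES. Its log2 fold change was 4.12 (SE 0.19, limma adjusted p = 1.36e-07). ND4L was at 11.36, 12.88 and 13.37 in mock CEM PA and at 16.90, 16.80, 16.98 and 17.13 in mock CEM RES. The parental arrays of ND4L spread over 2.01 log2 units and the resistant arrays over 0.33, and the log2 fold change was 4.42 (SE 0.36, limma adjusted p = 4.18e-06). With single arrays left out, the ND4L value ran from 3.86 to 4.83, against 3.96 to 4.25 for ND3. In CEM PA the ND4L arrays of session 2 were also higher than those of session 1, by 1.76 in mock-treated and by 0.73 in FK866-treated cells. Session 1 held 1 CEM PA array of each treatment, both replicate 1 on slide 1. Session, slide and replicate thus cannot be told apart there. Even the highest of the parental arrays, at 13.37, was below the lowest resistant array, at 16.51.

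**Figure D1:**
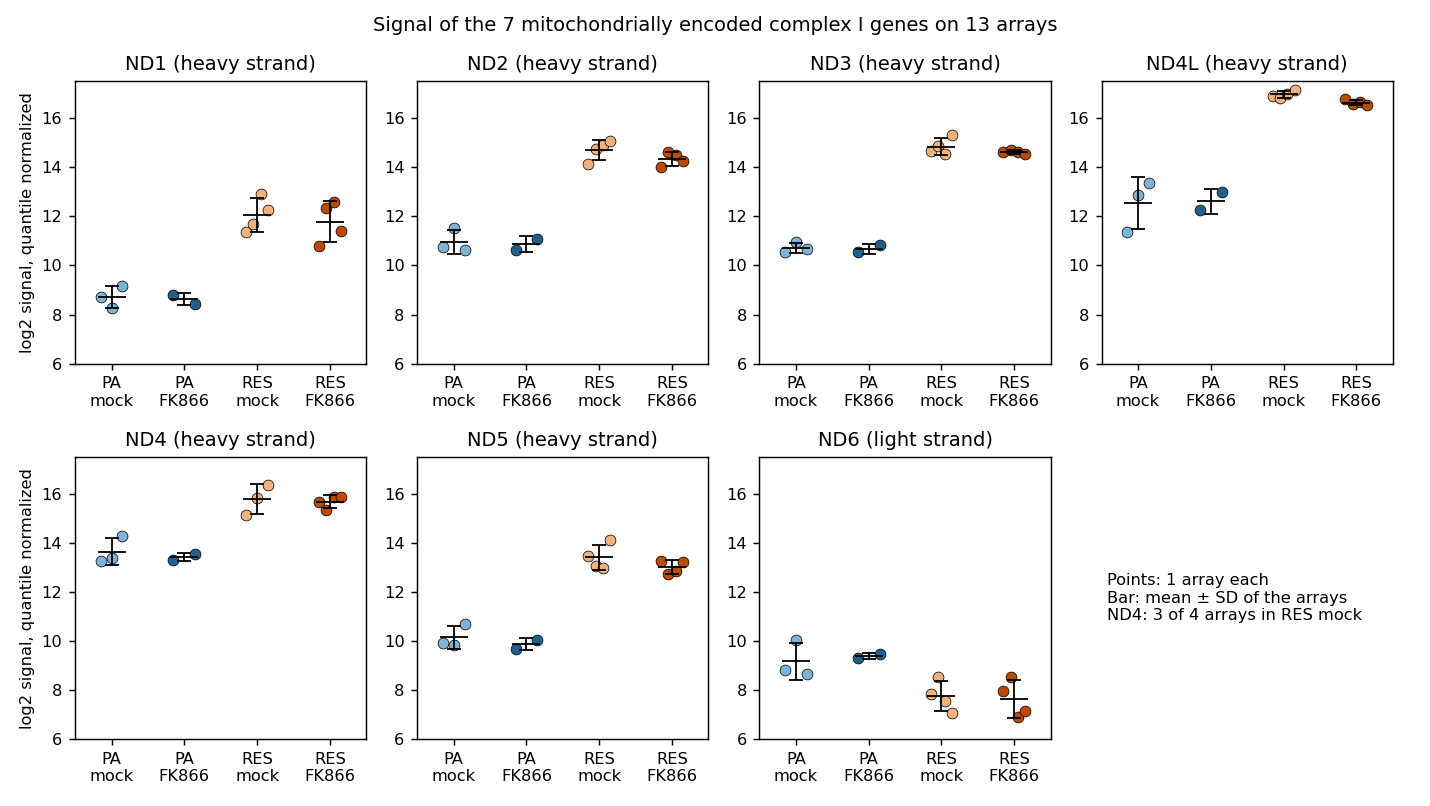
Quantile-normalized log2 signal (y axis) of each of the 7 genes on each of the 13 arrays (points), by group (x axis), with the mean and SD as bars. The resistant arrays lie above all parental arrays for the 6 heavy-strand genes and below them for ND6, where the highest resistant array (8.54) is close to the lowest parental one (8.68).

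ND6, a membrane subunit beside ND4L that takes part in the switch between the active and resting forms of the enzyme, went the other way. It was at 8.82, 10.04 and 8.68 in mock CEM PA and at 7.83, 8.54, 7.58 and 7.06 in mock CEM RES. The groups did not overlap, but the gap between them was narrow and CEM PA mock replicate 2 was well above the other parental arrays. The log2 fold change was -1.43 (SE 0.45, limma adjusted p = 0.0199). Without CEM PA mock replicate 2 it was -0.997 (adjusted p = 0.101), and without CEM RES mock replicate 4 it was -1.20 (adjusted p = 0.0552). The other 11 single omissions kept the adjusted p under 0.05. In rank terms, the ND6 probe stood at percentiles 68.7 to 77.5 of the array's probes on the parental arrays and at percentiles 57.3 to 67.9 on the resistant arrays.

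The lines treated with FK866 gave a second reading, with group means from other arrays than those of the mock comparison. The 2 readings were not independent. They shared the normalization, the fit's estimate of spread and the split of the lines by scan session, and same-numbered arrays of a line deviated together. The 6 heavy-strand genes were again higher in CEM RES, with log2 fold changes of 3.16 (ND1), 3.49 (ND2), 3.95 (ND3), 2.26 (ND4), 4.02 (ND4L) and 3.14 (ND5), and ND6 was lower with -1.75. All 7 passed limma's adjusted p of 0.05, the weakest being ND6 (SE 0.51, adjusted p = 0.0185), where 36.0% of all probes passed (18.0% higher, 18.0% lower; without CEM PA FK866 replicate 1, 4093 of 24633 probes, and without replicate 2, 5077 of 22867) and the median over all probes was 0.06. ND6 was at 9.32 and 9.47 on the FK866-treated CEM PA arrays and at 7.98, 8.54, 6.91 and 7.14 on the CEM RES arrays, without overlap, as 57.8% of all probes were in this comparison. Its call rested on both parental arrays. Without CEM PA FK866 replicate 1 the log2 fold change was -1.82 (adjusted p = 0.0954) and without replicate 2 it was -1.67 (adjusted p = 0.101), the remaining array being assumed to vary like the other groups. The order of the heavy-strand genes by log2 fold change (ND4L, ND3, ND2, ND1, ND5, ND4) was the same under both treatments. In the mock comparison the 95% intervals of neighbors in this order overlapped, down to ND5 (2.62 to 3.88) and ND4 (1.43 to 2.86), whereas those of ND3 (3.71 to 4.53) and ND4 did not.

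The light-strand gene was then set against each heavy-strand gene within an array, where any factor that scales all probes of an array drops out. The probes' own brightness sets the level of such a difference, so only its change between lines is given. The difference of ND6 minus a heavy-strand gene was lower in CEM RES, with changes of -3.60 (ND4) to -5.84 (ND4L) log2 units without drug and of -4.01 (ND4) to -5.77 (ND4L) with FK866. The lines did not overlap for any of the 6 pairs under either treatment, and the distance between the nearest arrays ran from 1.02 (ND4, mock) to 4.82 (ND3, FK866). This separation was fixed in advance by the single genes. On every CEM RES array measured, each heavy-strand gene lay above and ND6 below all CEM PA arrays. ND5, the gene next to ND6 on the molecule, gave changes of -4.68 (mock) and -4.89 (FK866). The ND5 rise was the larger part, with 3.25 against -1.43 for ND6 without drug. Averaged over the treatments the change was -4.78 (two-sided exact permutation test within treatments, p = 0.0019, the smallest that 525 arrangements can give). As the lines did not overlap, permutation p-values of this difference were fixed at their smallest and add nothing to that separation. They cannot tell line from scan session. That test treated the arrays as separate, although same-numbered arrays of a line deviated together. With them averaged into 7 units, a test chosen after seeing the data, the change was -4.53 (two-sided exact permutation test, p = 0.0286, the smallest that 35 arrangements can give).

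ND4L and ND4 are carried on 1 shared messenger RNA in human mitochondria, and their probes changed by unequal amounts. Their within-array difference, ND4L minus ND4, was -1.09 ± 0.72 (SD, n = 3) in mock CEM PA and 1.20 ± 0.44 (SD, n = 3) in mock CEM RES, and with FK866 it was -0.81 ± 0.35 (SD, n = 2) and 0.95 ± 0.28 (SD, n = 4). The parental arrays ended at -0.49 and the resistant arrays began at 0.63. The level of such a difference depends on the brightness of each probe, and no test of the shift between the lines was run.

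**Figure D2:**
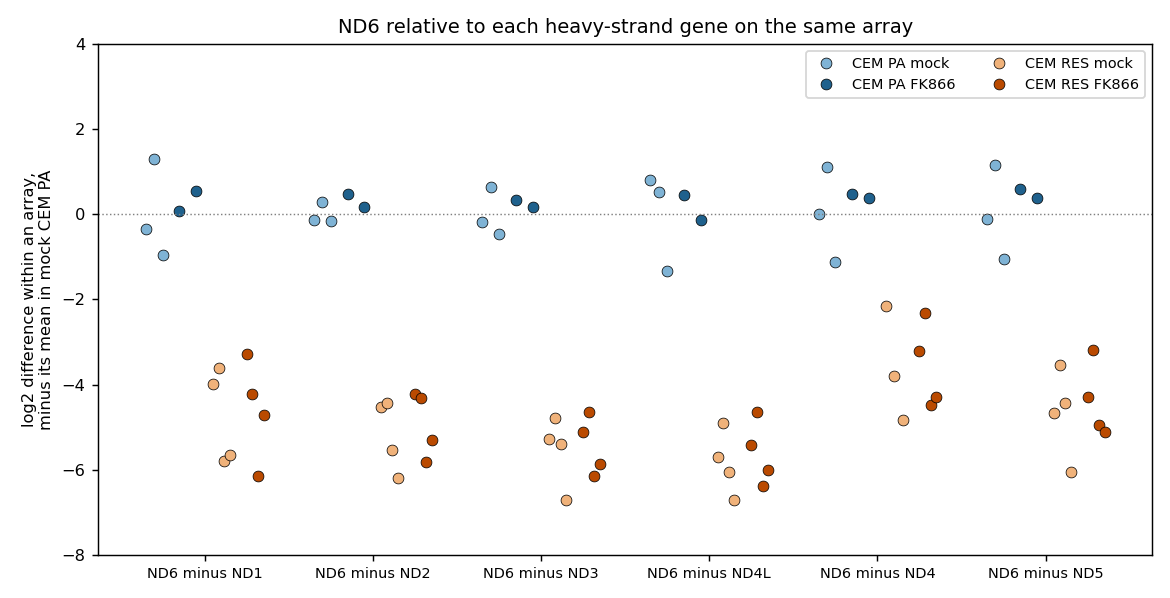
Log2 signal of ND6 minus that of each heavy-strand gene on the same array, with the mean of mock-treated CEM PA subtracted (y axis), for the 6 heavy-strand genes (x axis); each point is 1 array and colors mark the groups. The CEM RES arrays of both treatments lie below all CEM PA arrays for every pair, with mean shifts between the mock-treated lines of -3.60 (ND4) to -5.84 (ND4L).

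The next comparison asked whether FK866 moved these genes in parental cells. None of the 7 passed limma's adjusted p of 0.05 in CEM PA, where 1.53% of all probes passed (347, or 47 to 280 without 1 of the CEM PA arrays), and none passed at an unadjusted p of 0.05, where 14.4% did. The log2 fold changes were -0.10 (ND1), -0.10 (ND2), -0.04 (ND3), -0.22 (ND4), 0.07 (ND4L), -0.28 (ND5) and 0.21 (ND6), with adjusted p from 0.797 to 0.977. FK866 arrays overlapped with mock arrays for all 7 genes, while for 34.8% of all probes the groups did not overlap. ND3 had the tightest 95% interval, -0.53 to 0.45, and ND6 (-0.95 to 1.38) and ND1 (-1.25 to 1.06) had the widest, both reaching past 1 log2 unit with 3 and 2 arrays. On slide 1, which held 1 array of each treatment, the differences ran from -0.21 (ND5) to 0.88 (ND4L).

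In CEM RES the same dose of 5 nM also moved none of the 7 past the threshold. It lay below the 100 nM in which these cells were routinely kept, so it was not a like challenge for the 2 lines. There limma called 0 of 22754 probes (0%), with 1171 (5.15%) at an unadjusted p under 0.05 and 295 (1.30%) past the methods' double threshold of unadjusted p under 0.05 and absolute log2 fold change over 0.75. All 7 log2 fold changes were below 0, from -0.10 (ND4) to -0.40 (ND5), with adjusted p from 0.953 upward, beside a median of -0.02 over all probes. ND5 was at 13.48, 13.06, 12.99 and 14.10 with mock and at 13.26, 12.71, 12.84 and 13.23 with FK866, and these ranges overlapped. Its 95% interval of -0.98 to 0.19 included 0. On the 2 slides that held both treatments of CEM RES, the ND5 difference was -0.49 and -0.30. Set against the mock array of the same replicate number, the FK866 array was lower in 4 of 4 pairs for ND2 (-0.14, -0.12, -0.38 and -0.82), ND4L (-0.12, -0.25, -0.32 and -0.62) and ND5 (-0.22, -0.35, -0.14 and -0.87), as for 11.7% of all probes measured in 4 pairs. With the replicate number as a block, these 3 had limma adjusted p of 0.436 (ND2), 0.470 (ND4L) and 0.420 (ND5). The pairs of the other 4 genes differed in sign.

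ND4L alone of the 7 had treatment groups that did not overlap in CEM RES. It was at 16.90, 16.80, 16.98 and 17.13 with mock and at 16.77, 16.55, 16.66 and 16.51 with FK866, so every treated array lay below every mock array, which held for 2.90% of all probes in either direction. The log2 fold change was -0.33 (SE 0.34, limma adjusted p = 0.989, unadjusted p = 0.349), and the fit's spread included the wide parental arrays. With the CEM RES arrays alone the SE was 0.13 and the unadjusted p was 0.0339 (limma adjusted p = 0.960). The difference was -0.34 on slide 5 and -0.32 on slide 6. For ND1, ND4 and ND6 the 2 slides differed in sign, with -0.89 and 0.33 for ND1, -0.35 and 0.47 for ND4, and 0.13 and -0.34 for ND6. ND4 in CEM RES also turned with its 1 outlier spot, from -0.10 without that spot to 0.20 with it.

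The response to FK866 did not pass a test of difference between the lines for any of the 7 genes. The difference of responses, CEM RES minus CEM PA, ran from -0.40 (ND4L) to 0.11 (ND4), with limma adjusted p from 0.817 to 0.950, where 0.413% of all probes passed. The 95% interval was -1.60 to 0.80 for ND4L and -1.80 to 1.15 for ND6. By mean level, the order of the groups for each heavy-strand gene thus held both CEM RES groups above both CEM PA groups. The treatment groups of a line overlapped, apart from ND4L in CEM RES, and none differed past limma's adjusted threshold.

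**Figure D3:**
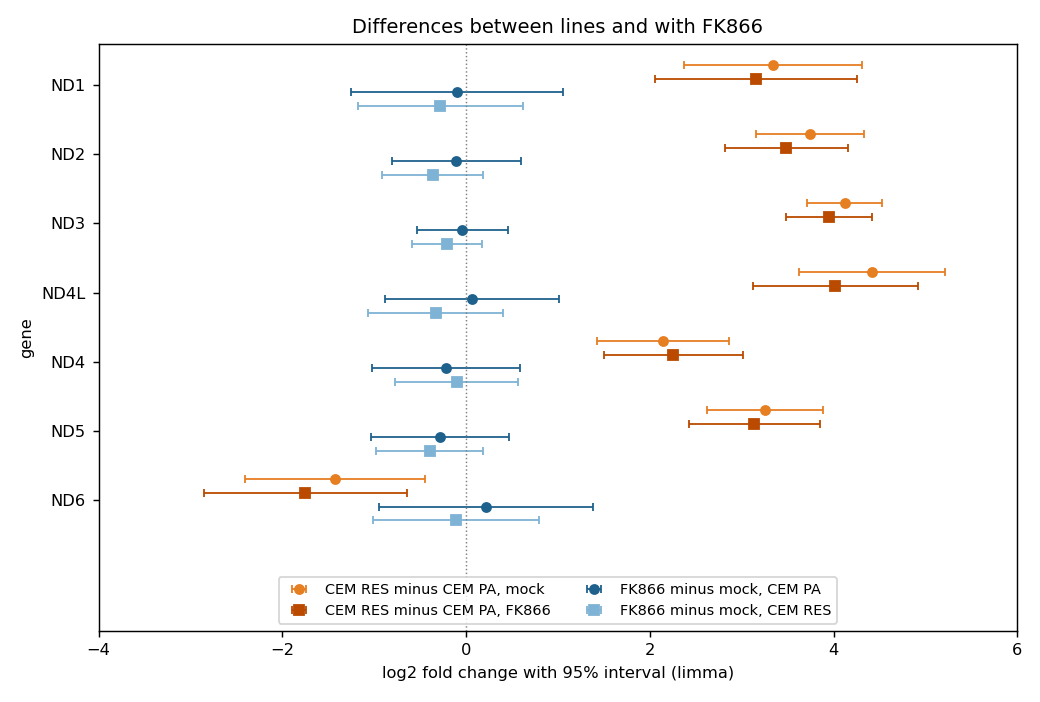
Log2 fold change (x axis) of each of the 7 genes (y axis) from the fit across all probes, with 95% intervals, for CEM RES minus CEM PA under mock and FK866 (orange) and for FK866 minus mock in each line (blue). The line differences lie between 2.14 and 4.42 for the heavy-strand genes and at -1.43 and -1.75 for ND6, and every interval of the drug comparisons spans 0.

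Within groups, the genes varied together only in part. Over deviations from the group mean on 13 arrays (12 for ND4), Pearson's r was positive for 11 of the 15 pairs of heavy-strand genes, with a median of 0.29 and a range from -0.24 to 0.82, the highest being ND4 with ND5. For the 6 pairs of ND6 with a heavy-strand gene it was positive in 3, with a median of -0.17 and the lowest value of -0.74 for ND4. The genes outside the 7 whose deviations most resembled the heavy-strand mean, of 17562 genes, were LY6E (r = 0.90), ZDHHC9 (0.89) and OST4 (0.89), and COX2, from the same molecule, came seventh with 0.85. For ND6 they were KIAA0922 (0.97), the unnamed transcript THC2623129 (0.96) and PCDHB11 (0.94). These are descriptions over a few arrays, some of them on shared slides, with the highest of many values picked.

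The other messenger RNAs of the mitochondrial molecule, all of the heavy strand, moved as the heavy-strand ND genes did. All 6 with a probe (CYTB of complex III, COX1, COX2 and COX3 of complex IV, ATP6 and ATP8 of ATP synthase) were higher in mock CEM RES, with a median log2 fold change of 2.87 from 1.66 (COX1) to 3.70 (ATP8). The ribosomal RNAs RNR1 and RNR2 were not among the probe names. The array files place the COX1 probe on chromosome 1, where the nuclear genome holds a copy of mitochondrial DNA. ATP8 shared the pattern of ND4L within CEM PA, at 11.03 and 11.42 on the arrays of session 1 (replicate 1, slide 1) and at 12.73, 12.26 and 12.35 on those of session 2. ND6 was therefore the only one of the 13 mitochondrial protein-coding genes, each with 1 probe, that was lower in CEM RES.

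Nuclear genes for the same enzyme rose by less. Of 37 nuclear complex I subunits, 24 rose, 3 fell and 10 did not pass between the mock-treated lines, 73.0% against 47.6% of all probes, with a median log2 fold change of 0.66. The largest rises were NDUFB11 (2.12), NDUFB3 (1.83) and NDUFA3 (1.66), accessory subunits of the membrane arm, and the falls were NDUFA10 (-0.80), NDUFC2 (-0.69) and NDUFA8 (-0.38). Of 14 assembly factors, which build the complex without staying in it, 5 rose and 0 fell, 35.7% against 47.6% of all probes, led by NDUFAF2 (1.91), ECSIT (1.17) and NDUFAF4 (0.94), with a median of 0.24.

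Of 32 tested genes for mitochondrial transcription, RNA processing and DNA maintenance, 12 rose, 1 fell and 19 did not pass, with a median of 0.13. The share that passed, 40.6%, was below the 47.6% of all probes. The largest rises were SLIRP (3.43), an RNA-binding protein that steadies mitochondrial messenger RNAs together with LRPPRC, TFAM (2.67), which packages mitochondrial DNA and starts its transcription, and C10orf2 (1.29), the Twinkle helicase. MTERFD3 fell (-0.59). The mitochondrial RNA polymerase POLRMT had a log2 fold change of -0.07 (limma adjusted p = 0.723). With FK866, 0 genes of the nuclear complex I list and of the assembly list passed in either line, and 1 of the third list did, TFB1M in CEM PA (-1.07, limma adjusted p = 0.0255), an rRNA methyltransferase of mitochondria.

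**Figure D4:**
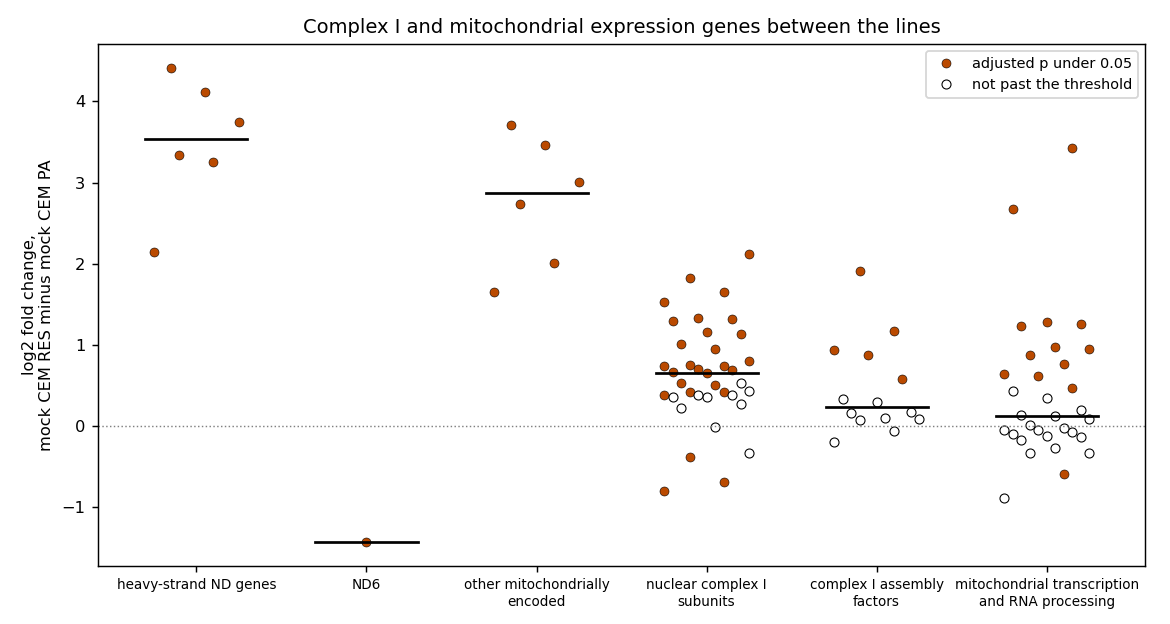
Log2 fold change of mock CEM RES over mock CEM PA (y axis) for every tested gene (points) of the gene groups on the x axis; filled points passed an adjusted p of 0.05 and bars are medians. The heavy-strand ND genes (median 3.54) and the other mitochondrially encoded genes (2.87) lie above the medians of the 3 nuclear groups (0.66, 0.24 and 0.13), and ND6 lies at -1.43.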

How the data were processed

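Total RNA (Trizol) was labeled with Cy3 and hybridized to Agilent 4x44K v2 human arrays. The authors deposited scanner output from Agilent Feature Extraction 10.7.7.1, whose processed intensity is background-subtracted, and a table of log2 values with a median of 5.37 on every array; its treatment of background is not given in the sources used here. From the processed intensities, outlier spots were set to missing, values were log2-transformed and quantile normalized, and spots of a probe were averaged. A probe was kept (22754 of 34127) if some group had it well above background on all of its arrays. limma 3.58.1 (R 4.3.3) fitted the 4 groups over 13 arrays, with Benjamini-Hochberg adjustment over all kept probes. Intervals are 95%, from the fit. The pipeline was tested on simulated data with arrays drawn independently. That simulation held neither the shared deviations of same-numbered arrays nor the overlap of line and scan session, so it does not bear on them. The number of arrays limits the precision.

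The members and gene lists were chosen with earlier results of these data known. All 7 members, the 3 largest rises and falls of each complex I and mitochondrial expression list and the 3 genes most like the members were named. Same-numbered arrays of the 2 treatments deviated together (r from 0.199 to 0.473 over 4 pairs in CEM RES and from 0.354 to 0.460 over 2 pairs in CEM PA), so a fit with line and replicate number as a block was an alternative. The 2 FK866 arrays of CEM PA deviate as mirror images, so its 2 pairs are not separate observations. CEM PA mock replicate 3 and FK866 replicate 2, both of session 2, also deviated together (r = 0.259). Replicate number and session thus cannot be told apart there. Other alternatives were 75th percentile scaling, normexp background correction, no filter, a stricter filter, outlier spots kept, 1 probe per gene, the deposited table, only the groups compared, slide or scan session as a random block, and leaving out each array. Results of some marker genes are not reported here.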

Additional observations from a re-analysis of the deposited data

How the results depend on the processing

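The directions between lines held for all 7 genes under every alternative, and the calls held except those of ND6 without single arrays, given with that result. The fit with the replicate block changed no member's call, but it moved the probes called for FK866 in CEM PA from 347 to 1218 and those for the difference of responses from 94 to 486. FK866 in CEM PA was also called for 580 probes with normexp, 191 without the filter, 90 with 1 probe per gene and 3 with only the groups compared, and for 47 and 77 without CEM PA FK866 replicates 1 and 2 and 193 and 112 without CEM PA mock replicates 1 and 2. The difference of responses was called for 186 with normexp, 56 without the filter and 23 with 1 probe per gene, and, with single arrays left out, for 27 and 52 (CEM PA FK866 1 and 2), 45 (CEM PA mock 2), 47 and 56 (CEM RES FK866 3 and 4) and 54 and 48 (CEM RES mock 2 and 3). Calls between the FK866-treated lines fell from 8186 to 4093 and 5077 without CEM PA FK866 replicates 1 and 2, and FK866 in CEM RES stayed at 3 or fewer. The double threshold between the mock-treated lines passed 8105 probes, and 4818 with normexp. Between the mock-treated lines, the median over all probes was 0.17 instead of 0.04 under 75th percentile scaling.

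The change in ND6 minus ND5 was -4.89 with the FK866 arrays alone (two-sided exact permutation test, p = 0.0667, the smallest that 15 arrangements allow), -4.68 with the mock arrays alone (exact p = 0.0286, the smallest of 35), -4.53 with same-numbered arrays averaged, and -5.04 to -4.50 with single arrays left out. It was -4.30 with normexp and -4.97 in the deposited table. Over the alternatives that kept all arrays, ND6 itself ran from -1.53 to -1.04 between the mock-treated lines. Between the FK866-treated lines it ran from -1.815 to -1.38. Of the drug effects, none of which passed the test in any setting, some turned sign. In CEM PA, ND3 was 0.00396 under 75th percentile scaling, and with the replicate block ND1 was 0.13, ND4 0.10 and ND6 -0.0354. In CEM RES, ND4 was 0.20 with outlier spots kept and 0.23 in the deposited table. The difference of responses of ND4 was -0.0406 under 75th percentile scaling, -0.000182 with normexp and -0.19 with the replicate block. With single arrays left out, log2 fold changes in CEM PA ran from -0.32 to 0.13 (ND1), -0.33 to 0.18 (ND2), -0.18 to 0.11 (ND3), -0.40 to 0.10 (ND4), -0.52 to 0.48 (ND4L) and -0.0354 to 0.65 (ND6), in CEM RES from -0.55 to 0.0478 (ND1), -0.42 to 0.19 (ND4) and -0.41 to 0.15 (ND6), and differences of responses from -0.45 to 0.15 (ND1), -0.21 to 0.40 (ND4), -0.81 to 0.19 (ND4L) and -0.39 to 0.12 (ND5). The cause of these turns was not tested.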
